A study of Homo sapiens with 11 samples.

Results

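The 34 genes described here encode the enzymes of glycolysis and of the pentose phosphate pathway, the enzymes that set the level of fructose 2,6-bisphosphate, the lactate dehydrogenases and the plasma membrane transporters of lactate. They were chosen by name from textbook pathways and not by their values, and they make up 34 of the 19646 protein-coding genes that were present in both the RNA-seq files and the GRCh37 annotation. All 34 were found. The name HK2 belongs to a hexokinase and to the cell line, so the former is called the HK2 gene and the latter HK2 cells. HK2 cells are an immortalised line of human proximal tubule epithelium, and all samples of the study came from this line, grown in serum-containing DMEM-F12 medium with a small amount of DMSO and without any further treatment. The RNA-seq group held 2 libraries of rRNA-depleted total RNA, and the H3K4me3, H3K27ac and H3K27me3 ChIP-seq groups held 2 replicates each. There was 1 condition, so no treatment was compared and no test was made. The spread given is that between the 2 libraries, which are not stated to come from separate cultures.

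Glycolysis splits glucose into pyruvate in the cytosol. It has an investment phase, in which hexokinase and phosphofructokinase spend ATP, and a payoff phase, from glyceraldehyde 3-phosphate to pyruvate, in which ATP and NADH are made. The pentose phosphate pathway branches off at glucose 6-phosphate and yields NADPH and ribose 5-phosphate. The proximal tubule of the kidney is known for making glucose rather than for burning it, and its cells in situ rely largely on fatty acid oxidation, whereas cultured cells commonly use glucose and release lactate.

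The level of a gene is its FPKM, the number of fragments normalised for transcript length and library size that the authors' StringTie run gave each transcript, summed over the gene's transcripts. FPKM is corrected for length, so levels of different genes may be set beside each other. From the ratio of the deposited coverage to FPKM, an FPKM of 1 stood for a mean coverage of 5.67 in library 1 and 5.52 in library 2. Of the 34 genes, 28 reached an FPKM of 1 in both libraries, where 58.8% of all protein-coding genes did. An FPKM of 100 in both libraries was reached by 14 of the 34, where 2.37% of all protein-coding genes did. The median over the 34 genes of the mean FPKM was 48.4, against 3.32 over all protein-coding genes. In each library apart the median of the 34 was 46.7 and 50.2. The 34 genes together took 3.36% of all TPM, which is a length-corrected share of all transcripts, in library 1 and 3.38% in library 2. GAPDH alone held 44.0% and 44.1% of that share, and GAPDH with ENO1, PKM, PGAM1 and TPI1 held 78.4% and 77.5%. GAPDH, ENO1, PKM, PGAM1, TPI1 and LDHB were 6 of the 100 highest protein-coding genes, where 0.509% of all protein-coding genes were. All 6 but LDHB act between the triose phosphates and pyruvate.

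**Figure D1:**
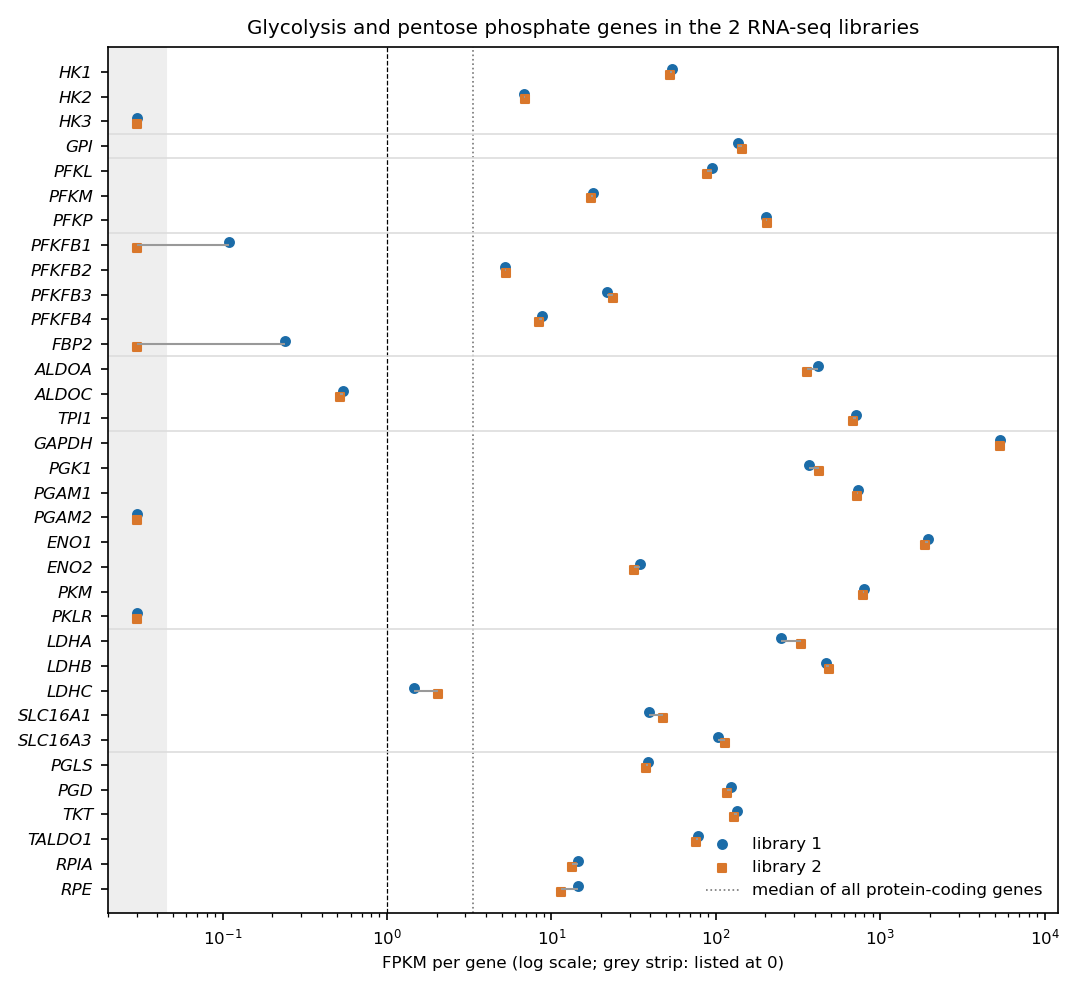
FPKM of each of the 34 genes on a log axis, with a circle for library 1 and a square for library 2; points in the grey strip are listed at 0, the dashed line is an FPKM of 1 and the dotted line the median of all protein-coding genes at 3.32. The 2 libraries lie close together for most genes, and GAPDH stands alone near 5361.

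Glucose is trapped in the cell by hexokinase. HK1, the broadly expressed form, was the main one of the 3 listed hexokinases, with an FPKM of 54.0 in library 1 and 52.5 in library 2 (mean 53.2 ± 1.10, SD, n = 2). The HK2 gene, the insulin- and hypoxia-responsive form, was at 6.77 and 6.90 (6.83 ± 0.092). HK1 was thus 7.79 times as high as the HK2 gene and held 88.6% ± 0.34 of the summed FPKM of the listed hexokinases. HK3, a form of myeloid cells, was listed at 0 in both libraries. Outside the 34 genes, HKDC1, a hexokinase paralogue that lies beside HK1 on chromosome 10, was at 54.8 and 52.8, the level of HK1 within the spread of the libraries, so that the share of HK1 holds only among the listed forms.

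The next step, the isomerisation to fructose 6-phosphate by GPI, has a single gene, at 135 and 143 (139 ± 5.6). Phosphofructokinase then commits the sugar to glycolysis. All 3 genes of its subunits were expressed. PFKP, the platelet-type subunit, led at 202 and 204 (203 ± 1.5). PFKL, the liver-type subunit, followed at 95.1 and 88.8 (91.9 ± 4.5), and PFKM, the muscle-type subunit, was lowest at 17.9 and 17.4 (17.6 ± 0.38). The order was the same in both libraries and the values did not overlap, with PFKP at 65.0% ± 1.2, PFKL at 29.4% ± 1.1 and PFKM at 5.65% ± 0.061 of the family.

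Phosphofructokinase is switched on by fructose 2,6-bisphosphate, which the bifunctional PFKFB enzymes make and break down. PFKFB3, the form with the highest kinase activity relative to phosphatase, was the highest at 21.7 and 23.6 (22.6 ± 1.3). PFKFB4 was at 8.77 and 8.37, and PFKFB2, the heart form, at 5.22 and 5.26. PFKFB1, the liver form, was at 0.110 in library 1 and listed at 0 in library 2. PFKFB3 was 2.64 times as high as PFKFB4 and 4.32 times as high as PFKFB2. FBP2, the muscle fructose bisphosphatase, which runs the phosphofructokinase step backwards, was at 0.241 in library 1 and listed at 0 in library 2.

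ALDOA, the ubiquitous aldolase that cleaves the hexose bisphosphate, was at 415 and 359 (387 ± 40). The brain form ALDOC was at 0.542 and 0.516, and ALDOA was 731 times as high. TPI1, which interconverts the triose phosphates and has no paralogue, was at 709 and 686 (697 ± 16).

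The payoff phase held the highest values. GAPDH, which oxidises glyceraldehyde 3-phosphate, was at 5359.7 and 5362 and ranked 1 among all protein-coding genes. PGK1, the first ATP-making step, was at 366 and 422 (394 ± 40), of which its protein-coding transcript held 358 and 342. PGAM1 was at 733 and 722 (727 ± 7.3), while its muscle paralogue PGAM2 was listed at 0 in both. ENO1, the common enolase, was at 1947 and 1867 (1907 ± 56) and ranked 7. ENO2, the neuronal enolase, was at 34.8 and 31.7 (33.2 ± 2.2), a 57.4-fold lower level that still ranked 1943 of the 19646 genes. ENO3, the muscle enolase and not one of the 34, was at 11.0 and 8.83. PKM was at 797 and 788 (792 ± 6.5), while PKLR, the pyruvate kinase of liver and red cells that the proximal tubule also uses, was listed at 0 in both. In each of these families the widely expressed gene carried all or nearly all of the signal. Some of these levels rested on transcripts that the annotation does not type as protein-coding. With protein-coding transcripts only, GAPDH was at 2007 and 1997, ENO1 at 912 and 836 and PKM at 146 and 157. They ranked 6, 18 and 236 by that measure, so that PKM then lay below PGK1 and LDHB. For PKM that measure left out its largest transcript, PKM-218, at 475 and 448, whose exon coverage is given further on. GAPDH with ENO1, PKM, PGAM1 and TPI1 then held 66.5% and 66.6% of the summed FPKM of the 34 genes, and the payoff phase summed to 4183 and 4074. The 6 genes among the 100 highest were then GAPDH, ENO1, PGAM1, TPI1, LDHB and PGK1.

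Lactate dehydrogenase was, like phosphofructokinase, divided between its genes. LDHB, the heart-type subunit, was at 466 and 488 (477 ± 15). LDHA, the muscle-type subunit, was at 250 and 329 (290 ± 56). LDHB was above LDHA in both libraries and held 65.0% and 59.5% of the family, and the ranges of the 2 genes did not overlap. LDHC, the testis form, was at 1.46 and 2.05. Lactate leaves the cell through monocarboxylate transporters. SLC16A3 (MCT4), a low-affinity lactate exporter, was at 103 and 114 (109 ± 8.0), and SLC16A1 (MCT1) was at 39.3 and 47.9 (43.6 ± 6.1), so that SLC16A3 held 71.4% ± 1.3 of the pair. Their chaperone basigin (BSG), from the list of other carbohydrate genes, was at 301 and 275.

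All 6 listed genes of the pentose phosphate pathway were expressed. In the oxidative branch, the lactonase PGLS was at 38.6 and 37.6 (38.1 ± 0.69) and PGD, which makes NADPH, at 124 and 116 (120.1 ± 5.8). In the non-oxidative branch, which returns sugars to glycolysis, transketolase TKT was at 134 and 130 (132 ± 3.4) and TALDO1 at 78.1 and 75.9 (77.0 ± 1.6). The isomerase RPIA was at 14.6 and 13.3 and the epimerase RPE at 14.4 and 11.5, whose ranges overlapped and which were the lowest of the 6. The transketolase paralogue TKTL1 was at 0.0722 and 0 and TKTL2 was listed at 0. The summed FPKM of the 6 genes was 404 and 384, against 9236 and 9192 for the 8 genes of the payoff phase.

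**Figure D2:**
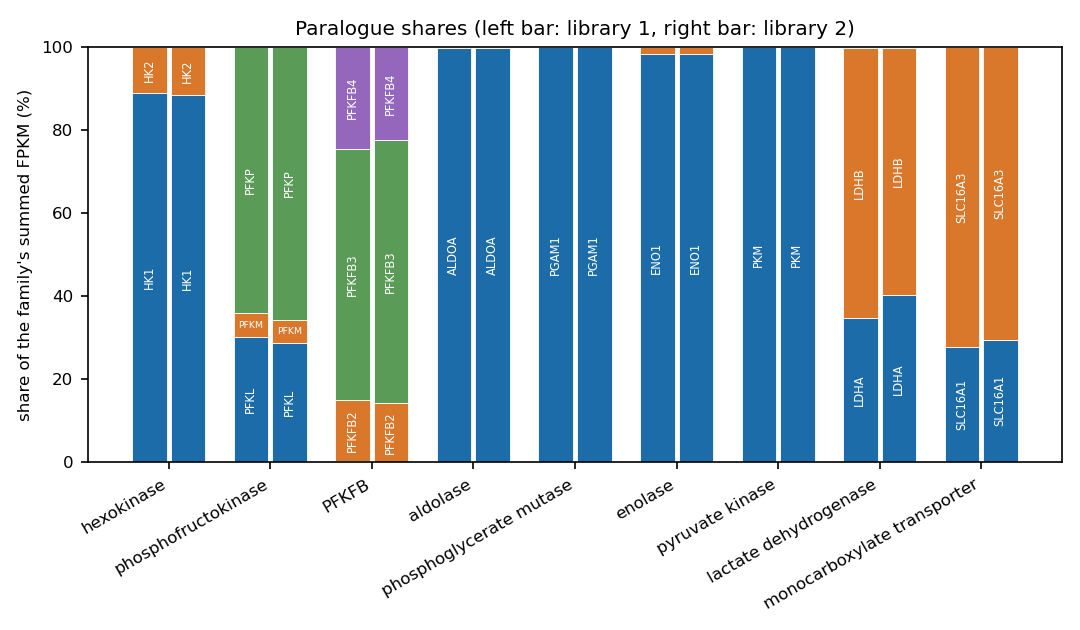
Share of each gene in the summed FPKM of its family in percent, with the left bar of each pair for library 1 and the right bar for library 2. One gene carries nearly all of the aldolase, mutase, enolase and pyruvate kinase signal, whereas phosphofructokinase, PFKFB, lactate dehydrogenase and the transporters are divided, with LDHB at 65.0% and 59.5%.

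The 2 libraries were close. Among the 28 genes at an FPKM of 1, the ratio of library 2 to library 1 ran from 0.795 to 1.40 with a median of 0.980, and 3 of the 28 lay beyond 1.25-fold up or down, where 17.1% of all protein-coding genes at that level did. They were LDHC (1.40), LDHA (1.32) and RPE (0.795). For scale, the central 95% of the 473 protein-coding genes with a mean FPKM of 100 to 1000 had ratios of 0.790 to 1.37, so that LDHA lay inside that range. SLC16A1 (1.22), PGK1 (1.15) and ALDOA (0.865) followed, and GAPDH, at 1.00, hardly differed. The higher value of PGK1 in library 2 lay in PGK1-205, at 2.40 and 74.5, whose first exon is taken up further on. PGK1-201, its protein-coding transcript, was at 358 and 342, lower in library 2.

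The other genes of carbohydrate metabolism were taken as a list of 34 more genes. Of these, 23 reached an FPKM of 1 in both libraries, where 58.8% of all protein-coding genes did, and their median was 8.45. The entry of pyruvate into mitochondria was represented by MPC2 (45.2 and 42.2) and MPC1 (10.6 and 11.8), and pyruvate dehydrogenase by PDHA1 (36.8 and 36.0), DLD (21.8 and 20.2) and PDHB (22.3 and 20.0). Of the kinases that switch this enzyme off, PDK3 was highest at 13.8 and 13.5. PGM1, which links glycogen to glycolysis, was at 40.5 and 41.7, and PDP1, the phosphatase that reactivates pyruvate dehydrogenase, at 32.0 and 37.6. An active promoter, as defined further on, was found at 18 genes of this list, where 53.5% of all protein-coding genes had one. Of the 9 genes of gluconeogenesis, 4 reached an FPKM of 1 and 3 had an active promoter, beside the same 58.8% and 53.5%. PCK1, the cytosolic enzyme that commits carbon to glucose, was at 0.0137 and 0.0106, FBP1 at 0.0335 and 0, and G6PC was listed at 0 in both. The mitochondrial PCK2 was at 15.2 and 13.1, the broadly expressed G6PC3 at 35.5 and 32.5, SLC37A4 at 9.25 and 6.27 and PC at 1.80 and 2.69. PCK1, FBP1 and G6PC, the enzymes particular to glucose-making tissues, were thus at or near 0.

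The labelled cell type was checked against its markers. Of 8 proximal tubule markers, 2 reached an FPKM of 1, GGT1 at 64.1 and 58.1 and SLC5A2 at 1.56 and 2.36, whereas LRP2 and SLC22A6 were listed at 0 and CUBN was at 0.0334 and 0.0416. Of 5 epithelial markers, 4 reached it, led by KRT8 at 179 and 184, and CDH1 was at 0.210 and 0.283. The keratins were thus present, and most defining proximal tubule genes were at or near 0. In bulk RNA, fewer cells with a transcript and less of it per cell cannot be told apart. The 3 podocyte, 3 thick limb and collecting duct, 2 testis and 3 skeletal muscle markers were all below an FPKM of 1, as were the 2 endothelial markers that could be measured. Of 2 leukocyte markers PTPRC was at 0 and CD68 at 42.5 and 36.8, and of 3 erythroid markers HBB and ALAS2 were at 0 and HBA1 at 3.37 and 3.38.

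A promoter was called active where H3K4me3, which marks starts of transcription, and H3K27ac, which marks active promoters and enhancers, each had a peak in both replicates within 1 kb of any annotated start site of the gene. The peak lists give limits only, so peak height was not used here. Of the 34 genes, 27 had an active promoter, where 53.5% of all protein-coding genes did. All 27 were among the 28 expressed genes, and 83.6% of protein-coding genes at an FPKM of 1 in both libraries had one. None of the 6 genes under an FPKM of 1 had an active promoter, where 10.5% of protein-coding genes at that level did. The remaining expressed gene was LDHC. It had an H3K4me3 peak of 976 bp and an H3K27ac peak of 943 bp over its start, both in replicate 1 and neither in replicate 2. Expression class and promoter class thus matched in 33 of the 34 genes. They also matched in most protein-coding genes, as the shares of 83.6% and 10.5% show.

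Of the 6 low genes, 4 carried none of the 3 marks at their starts. Neither active mark appeared near a start in any list at 5 of the 34 genes, where 18.7% of all protein-coding genes had none. They were HK3, FBP2, ALDOC, PGAM2 and PKLR. PFKFB1 had an H3K4me3 peak of 2522 bp and an H3K27ac peak of 1966 bp in replicate 1 only, lying beyond its outermost start. H3K27me3, the mark of Polycomb repression, had a peak in both replicates at 0 of the 34 genes, where 11.4% of all protein-coding genes had one. In either replicate it was found at 1 of the 34, where 16.2% of all protein-coding genes had one. That gene was FBP2, with a peak of 1027 bp over its start in replicate 2, chr9:97355248-97356274 in hg19.

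Around the canonical start sites, the median number of bases within 1 kb covered by H3K4me3 peaks in the 27 active genes was 1858 in replicate 1 and 1633 in replicate 2. The medians over 9640 active and expressed protein-coding genes were 1914 and 1441. For H3K27ac the medians were 1773 and 1225 in the 27 genes against 1784 and 985. In replicate 1 the H3K27ac peak lay over the canonical start in all 27 genes, but in replicate 2 it did so in 12, where 54.9% of the active genes had it. In 14 others the replicate 2 peak lay beside the start, within 1 kb, and at PFKM it lay at another start of the gene. The replicate 2 list had narrower peaks throughout, with a median of 657 bp against 1357 bp. The sequencing statistics of the study, which were not recomputed, put a smaller share of reads in peaks in H3K27ac replicate 2 than in replicate 1, and the part of this in the narrower peaks was not tested. Across the 27 genes the FPKM and the covered bases had a Spearman correlation of 0.461 in H3K27ac replicate 1 and 0.630 in replicate 2, and of 0.199 and 0.174 for H3K4me3. Over the 9640 genes the H3K27ac values were 0.241 and 0.284, and the H3K4me3 values 0.0926 and 0.137. The covered bases could not exceed 2001, which GAPDH, ENO1, PKM and others reached for both marks in replicate 1. The points of one replicate share a library and the width of its peaks. At GAPDH the H3K4me3 peak spanned 6115 bp in replicate 1 and 5452 bp in replicate 2, more than the gene's 3863 bp, and at ENO1 it spanned 6865 and 2921 bp.

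**Figure D3:**
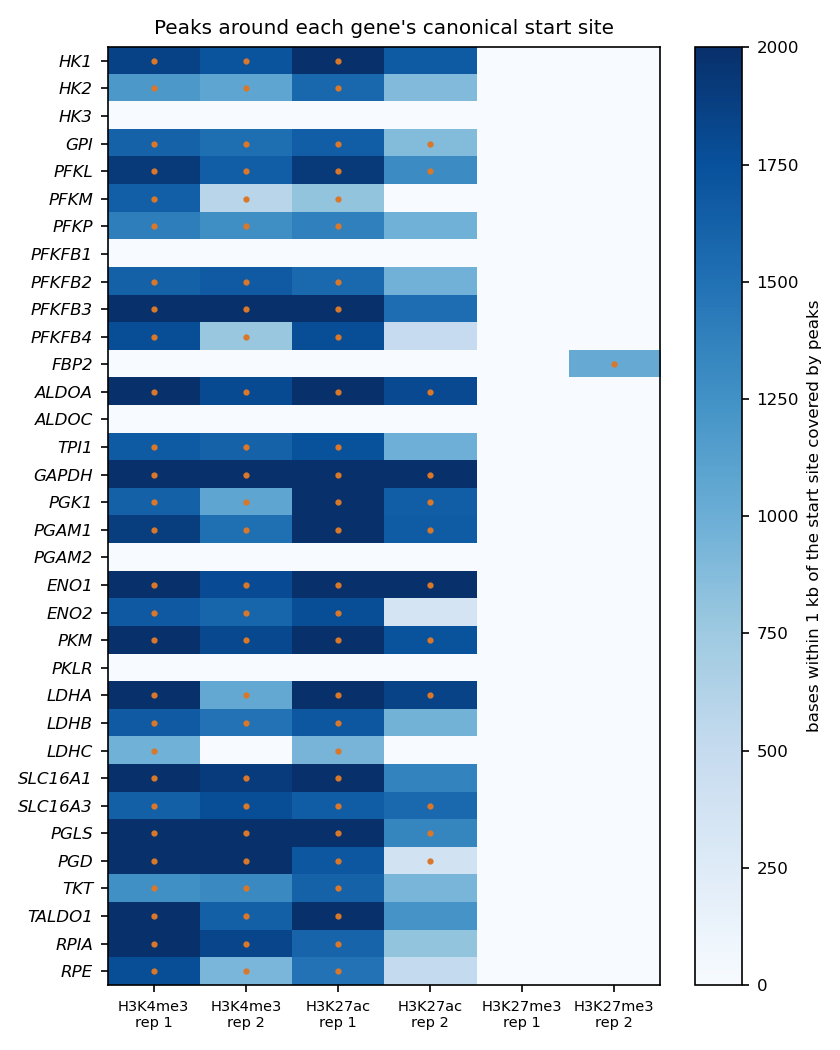
Bases within 1 kb of the canonical start site covered by peaks, darker for more, for each of the 34 genes in the 6 peak lists; an orange dot marks a peak over the start site itself. The 27 active genes are filled in both H3K4me3 lists and H3K27ac replicate 1, H3K27ac replicate 2 lacks the dot at most genes, and the H3K27me3 lists are empty but for FBP2 in replicate 2.

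The sequences upstream of 5 starts are shown because they contrast active promoters with one that had no peak. They were read from the GRCh37 genome as the bases before the canonical start site that hold no annotated exon, up to 250, and capitals mark GGGCGG (the GC box) and ACGTG (the core of the hypoxia response element) on either strand.
PGK1, chrX:77359495-77359744, plus strand: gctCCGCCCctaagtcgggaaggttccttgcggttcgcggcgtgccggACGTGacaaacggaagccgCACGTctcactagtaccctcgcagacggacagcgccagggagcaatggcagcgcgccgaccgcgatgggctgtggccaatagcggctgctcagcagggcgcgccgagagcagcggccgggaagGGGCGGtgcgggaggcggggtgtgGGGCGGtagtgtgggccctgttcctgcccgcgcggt
HK2 gene, chr2:75061115-75061253, plus strand: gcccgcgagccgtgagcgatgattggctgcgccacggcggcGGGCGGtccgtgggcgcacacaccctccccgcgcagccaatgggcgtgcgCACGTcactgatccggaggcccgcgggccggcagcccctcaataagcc
ALDOA, chr16:30076831-30077080, plus strand: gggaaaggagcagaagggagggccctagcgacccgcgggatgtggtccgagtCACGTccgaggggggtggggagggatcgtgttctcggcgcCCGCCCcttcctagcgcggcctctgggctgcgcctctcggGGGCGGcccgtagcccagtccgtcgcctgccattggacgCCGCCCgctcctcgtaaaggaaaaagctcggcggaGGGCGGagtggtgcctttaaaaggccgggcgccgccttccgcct
SLC16A3, chr17:80186668-80186917, plus strand: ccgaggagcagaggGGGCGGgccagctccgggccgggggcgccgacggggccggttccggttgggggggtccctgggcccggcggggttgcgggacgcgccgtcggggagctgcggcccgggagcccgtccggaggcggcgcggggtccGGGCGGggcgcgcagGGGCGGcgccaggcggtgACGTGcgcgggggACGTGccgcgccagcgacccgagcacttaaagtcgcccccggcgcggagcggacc
PKLR, chr1:155271230-155271479, minus strand: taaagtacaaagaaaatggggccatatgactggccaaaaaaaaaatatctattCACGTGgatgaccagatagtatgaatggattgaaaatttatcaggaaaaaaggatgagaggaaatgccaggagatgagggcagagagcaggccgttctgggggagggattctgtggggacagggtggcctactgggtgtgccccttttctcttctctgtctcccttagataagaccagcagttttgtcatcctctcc
PGK1, ALDOA, SLC16A3 and the HK2 gene each hold several GC boxes within 250 bases, 3, 4, 3 and 4 in that order, of which 1 of the HK2 gene lies in the shorter stretch printed, and PKLR holds none. Over the same 250 bases, GGGCGG was present in 23 of the 27 active genes, in 2 of the other 7, in 59.5% of 19546 protein-coding promoters and in 75.1% of the 9639 active ones. ACGTG was present in 11 of the 27, in 3 of the other 7, in 20.5% of all and in 24.6% of the active ones. The active promoters printed above all hold ACGTG, so in this they are not typical of the 27. PFKFB2 and RPIA, also active, hold none. CACGTG, the E-box, which contains ACGTG on both strands, was present in 3 of the 27, in 2 of the other 7, in 7.91% of all and in 9.73% of the active ones. CCAAT was present in 13 of the 27, in 2 of the other 7, in 34.3% of all and in 35.1% of the active ones. TATAAA was present in 2 of the 27, in 1 of the other 7, in 9.22% of all and in 4.22% of the active ones. LDHA had the most ACGTG matches of the 34, 5, of which 4 lie in its 2 E-boxes. The median GC content was 71.2% in the 27 genes, 54.8% in the other 7 and 66.8% in the active protein-coding genes. A match of letters is a description of the window and says nothing of binding.

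H3K27ac was also looked for inside the genes, over 1 kb from any annotated start and away from H3K4me3. Of the 28 expressed genes, 9 held such a segment in both replicates, where 21.4% of protein-coding genes at an FPKM of 1 did. The 28 genes had a median length of 36269 bp against 33417 bp. PFKP held 4 segments, the longest of 2325 bp at chr10:3132389-3134713, and PFKFB3 held 4, the longest of 599 bp at chr10:6280691-6281289. TKT held 1 of 2499 bp at chr3:53272438-53274936 and SLC16A3 1 of 1525 bp at chr17:80197974-80199498. The HK2 gene, PFKFB2, ENO1, PKM and LDHB held 1 each.

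Pyruvate kinase has a choice of exon. PKM-201 and PKM-202, its M1 and M2 forms, differ by 1 coding exon of 167 bp, of which a transcript holds one or the other, and the M2 form is the one known from growing cells. Both exons lie on the minus strand of chromosome 15, and each is exon 9 of its own transcript. They are shown because the result below turns on them, with capitals at the 62 of 167 positions where they differ.
M1 exon, chr15:72495363-72495529 (GRCh37): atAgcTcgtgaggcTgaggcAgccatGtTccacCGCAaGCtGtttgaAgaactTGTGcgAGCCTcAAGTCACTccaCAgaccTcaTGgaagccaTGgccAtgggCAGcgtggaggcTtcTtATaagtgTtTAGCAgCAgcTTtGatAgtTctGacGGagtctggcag
M2 exon, chr15:72494795-72494961 (GRCh37): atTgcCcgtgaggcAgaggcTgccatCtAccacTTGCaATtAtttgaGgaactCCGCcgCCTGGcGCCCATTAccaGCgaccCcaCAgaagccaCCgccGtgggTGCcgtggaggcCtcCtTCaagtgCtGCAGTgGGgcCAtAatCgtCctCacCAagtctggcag
The exons are 62.9% identical position by position.

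By transcript FPKM, the transcripts of PKM with the M2 exon alone were at 571 and 556, and those with the M1 exon alone at 138 and 149. The M2 share of the sum was 80.6% and 78.9% (79.7% ± 1.2, n = 2). The files also give a coverage for each exon, and there the share differed. Summed over transcripts, the M2 exon had a coverage of 7177 in library 1 and 6604 in library 2, and the M1 exon 75.1 and 93.7. The M2 share by exon coverage was therefore 99.0% and 98.6%. When every exon overlapping either one was added, it was 98.3% and 97.9%. The shared exon before the pair (exon 8 of PKM-202) had a summed coverage of 4393 and 4094, less than the M2 exon. This sum takes only exons with exactly the same limits, and it was uneven along PKM-202. It was 7373 and 6947 at exon 4 but 1076 and 1007 at exon 10, which follows the M2 exon. The shares by exon coverage are therefore approximate, and the effect of this unevenness on them was not tested. PKM-219, the highest M1 transcript, had a mean coverage of 480 in library 1 with only 48.4 on its M1 exon. Its FPKM of 84.6 and 85.6 thus rested mostly on exons other than the M1 exon. The same held for the M2 transcript PKM-222, at 82.9 and 94.1. It had a mean coverage of 470 and 519, with 67.8 and 69.8 on its M2 exon. Of the coverage of the M2 exon, 7115 and 6549 lay in PKM-218 alone. The largest PKM transcript, PKM-218, at 475 and 448, holds the M2 exon but is typed in the annotation as a target of nonsense-mediated decay, and PKM-202 itself was at 1.90 and 0.463. When only transcripts typed protein-coding were kept, the M2 share was 4.32% and 3.52%.

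**Figure D4:**
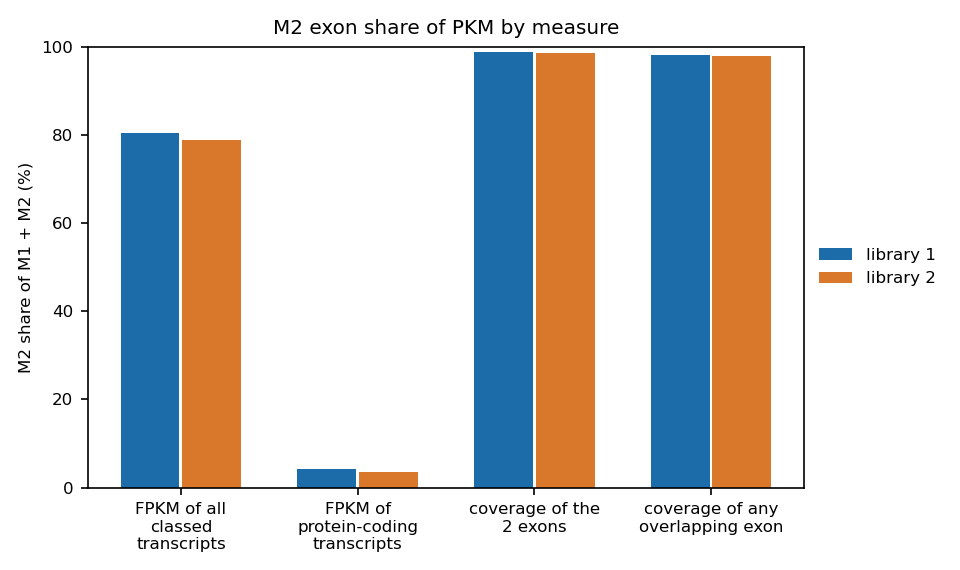
M2 share of M1 plus M2 signal of PKM in percent by 4 measures, blue for library 1 and orange for library 2. The share is near 79.7% by the FPKM of all classed transcripts, 3.92% by protein-coding transcripts and 98.8% by the coverage of the 2 exons themselves.

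Of 27 expressed genes with several transcripts, 23 had the same leading transcript in both libraries, where 78.9% of such protein-coding genes did. The leader was typed other than protein-coding in 3 of the 27, where 8.97% of such genes had one. These 3 were GAPDH, ENO1 and PKM, which were among the genes with the highest levels. The leader changed between libraries in GPI, PFKFB3, ENO2 and RPE. In GPI, GPI-202 led in library 1 and held 46.0% and 33.0% of the gene, GPI-201 held 41.6% and 14.3%, and GPI-205, the leader in library 2, held 3.02% and 46.4%, although their starts lie in 1 cluster and the gene's level was 135 and 143. Several genes were simple. RPIA had 1 transcript, and PGAM1-201, TPI1-202, SLC16A1-201 and TALDO1-201 held 99.4%, 98.5%, 93.9% and 90.0% of their genes in library 1.

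Exon coverage was set beside transcript FPKM for the leading pair of transcripts of 5 genes, picked with their values already in view. PFKFB3-203 and PFKFB3-205 start 58 kb apart, and both starts had H3K4me3 and H3K27ac in both replicates. Of their summed FPKM, PFKFB3-203 held 93.7% in library 1 and 47.7% in library 2. Its first exon had a coverage of 230 and 210, against 26.6 and 21.5 for that of PFKFB3-205, which put its share at 89.6% and 90.7%. The difference between the libraries in the FPKM of these transcripts was therefore not seen at the first exons that tell them apart. PGK1-205 likewise was at an FPKM of 2.40 in library 1 and 74.5 in library 2, but its own first exon had a coverage of 2.73 and 1.22 beside 3217 and 3057 for that of PGK1-201. For HK1, HK1-202 held 82.3% and 80.1% of its pair with HK1-201 by FPKM and 97.7% and 98.5% by first exon.

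In ENO1 and GAPDH the leading transcript retains an intron. ENO1-203 held 53.2% and 55.4% of its pair with ENO1-201 by FPKM. The 846 bp exon that sets it apart had a coverage of 352 and 329, while the 59 bp exon of ENO1-201 inside it had 12725 and 11498. GAPDH-208 held 63.7% and 63.8% of its pair with GAPDH-201, but the 327 bp exon that bridges an intron had 3581 and 3457 against 31920.4 and 31671 for the 91 bp exon of GAPDH-201. By these exons ENO1-203 held 2.70% and 2.79%, and GAPDH-208 held 10.1% and 9.84%. For PFKM the leading transcript PFKM-210 (53.7% and 63.0% of the gene) began at a site with neither active mark nearby in any list, and its first exon had a coverage of 0.644 and 8.30 against a median of 76.6 and 78.2 over its exons. The marked starts of PFKM lay upstream of it. In LDHC the leading transcript LDHC-207 was covered over exons 1 to 7 in both libraries, at 1.44 to 11.5 in library 1 and 6.47 to 11.2 in library 2, whereas its last and longest exon, of 1096 bp, was at 0.717 and 1.24.

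**Figure D5:**
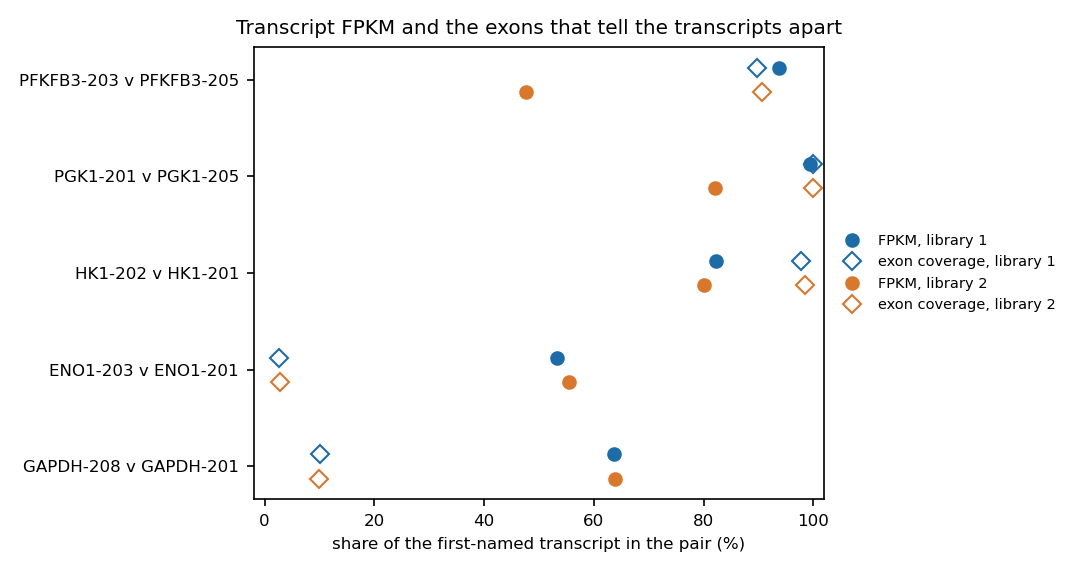
Share of the first-named transcript in each of 5 pairs in percent, by transcript FPKM (filled circles) and by the coverage of the exons that tell the pair apart (open diamonds), blue for library 1 and orange for library 2. For PFKFB3 the circles lie at 93.7% and 47.7% and the diamonds at 89.6% and 90.7%.

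Some values share reads with other genes. The files hold 110 numbered pseudogenes of 14 of the genes, of which 62 are copies of GAPDH, but their summed FPKM was at most 0.891% of that of the parent, for LDHA. How reads that fit several places were counted is not given in the sources used here, nor is strand. GAPDH overlaps AC006064.4 on the opposite strand by 577 bp, which was at 115 and 107, and SLC16A3 overlaps CSNK1D, at 52.7 and 43.0, over 22107 bp. PFKFB2 overlaps YOD1 on the opposite strand over 9132 bp. YOD1, at 7.12 and 9.28, was above PFKFB2 itself, at 5.22 and 5.26. Reads of such partners cannot be told apart without strand. ALDOC, at 0.542 and 0.516, overlaps AC005726.2, at 1.11 and 1.66, on the same strand over 4150 bp. Of the FPKM of ALDOA, 15.9% and 24.1% lay in transcripts that the GRCh37 annotation no longer lists. Several promoters are shared head to head, those of PGAM1 with RRP12 (17.7 and 16.1) 115 bp apart, of RPIA with EIF2AK3 (10.5 and 9.61) 155 bp apart and of PFKM with SENP1 (7.92 and 8.17) 27 bp apart. The peaks there belong to either gene.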

How the data were processed

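RNA-seq of 2 libraries and ChIP-seq of 3 marks in 2 replicates each were used, and the input DNA and HiChIP samples were left out. The authors mapped reads of rRNA-depleted RNA with HISAT2, and the deposited files give FPKM, TPM and coverage per transcript from StringTie 1.3.3 on GENCODE 27, per the file headers. The methods name hg19, whereas those coordinates are GRCh38, so genes and transcripts were joined by Ensembl identifier only. For ChIP-seq, the authors used Bowtie2 on hg19 and then MACS2 per replicate, and the deposited lists hold peak limits and no score.

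Start sites came from GENCODE 44 on GRCh37, and peaks on the 24 main chromosomes were kept. FPKM was summed per gene, with no pseudocount and no other filter. As there was 1 condition, no test was run, and values are given as mean ± SD of 2 libraries. Overlap and share functions were tested on simulated data. Python 3.11.15, numpy 2.4.6, pandas 2.3.3, scipy 1.17.1 and matplotlib 3.10.9 were used. The genes and lists were chosen with earlier results of these data known. The rule for names took each of the 34 genes, and other genes if they were paralogues or reached an FPKM of 10 in both libraries. The markers, the other genes of gluconeogenesis and the genes that share reads or a promoter were named beyond that rule. Alternatives covered the FPKM minimum, TPM, transcript types, the window, the start sites, replicates and exon coverage.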

Additional observations from a re-analysis of the deposited data

How the results depend on the processing

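The count of expressed genes and of active promoters stayed within 1.5 times under all alternatives run. With TPM in place of FPKM the median of the 34 genes was 134. With protein-coding transcripts only, the family shares were 88.3% for HK1, 63.7% for PFKP, 99.8% for ALDOA, 96.9% for ENO1, 67.8% for LDHB and 69.9% for SLC16A3, each still the leader. The M2 share of PKM went to 3.92% with protein-coding transcripts and to 98.8% with exon coverage. Exon coverage in place of FPKM, an alternative added after seeing the data, put HK1-202 at 98.1%, ENO1-203 at 2.74% and GAPDH-208 at 9.96% of their pairs. Genes with H3K27me3 numbered 1 with peaks of either replicate. Leaving out either ChIP-seq replicate gave 0 to 1 for that count. Starting from the leading transcript alone, PFKM and ENO1 lost the active call, and with a 2 kb window PFKFB1 gained it. Dividing the ratio of the libraries by the median ratio moved 1 of 28 genes across 1. No paired analysis was possible because there was 1 condition and no comparison between groups. Peak lists hold no score, so a missing peak may be one under the caller's limit.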
